A study of Rattus norvegicus with 20 samples.

Results

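The 13 protein genes of the mitochondrial genome were followed in cortical collecting ducts of rats given a water load under constant vasopressin V2 receptor stimulation. They were the rows of the count table whose symbol begins with Mt-, 13 of 32545 genes, and 0 rows of ribosomal or transfer RNA carry such a symbol. The 13 are Mt-nd1, Mt-nd2, Mt-nd3, Mt-nd4, Mt-nd4l, Mt-nd5 and Mt-nd6, subunits of complex I, and Mt-cytb, the cytochrome b of complex III. Mt-co1, Mt-co2 and Mt-cox3 encode the catalytic core of complex IV, cytochrome c oxidase, and Mt-atp6 and Mt-atp8 encode membrane subunits of the ATP synthase. All 13 passed the filter on low counts. The count table gives no coordinates for them and none are given here; the order and overlaps of the genes along the mitochondrial genome, used below, are textbook background.

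The mitochondrial genome is a small circle of DNA that lies inside the mitochondria in many copies. A dedicated polymerase, Polrmt, copies it into long transcripts that are cut into the single RNAs, mostly at the transfer RNAs between them, so that RNA levels of the protein genes also depend on how long each RNA lasts. Each of the 13 proteins joins nuclear encoded subunits in an enzyme of the respiratory chain or in the ATP synthase. Mt-nd6 is read from the opposite strand to the other protein genes, and Mt-atp8 overlaps Mt-atp6 as Mt-nd4l overlaps Mt-nd4. In the collecting duct, intercalated cells are known for many mitochondria, and principal cells carry the vasopressin regulated water channel Aqp2.

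Male Sprague-Dawley rats aged 5 weeks gave the ducts, which were microdissected, and each rat gave 1 library. Every rat, controls included, carried a minipump that gave DDAVP, a V2 receptor agonist, at 5 ng per hour. Of the 20 rats, 10 took 50 mL of water per day in gelled food, the water load, and 10 took 25 mL per day, the controls. Ducts were taken at day 1 from 3 control and 3 water-loaded rats, at day 2 from 4 and 4, and at day 4 from 3 and 3. These days are those of the sample titles; the treatment protocol in the labels speaks of dissection after 4 days of water load and does not mention the earlier days. The question of the design is what changes in the duct as it escapes from the action of vasopressin. Any treatment of the minipump alone is shared by all groups, so its own effect is not measured here.

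Gene reads numbered 33.5 to 74.9 M per library, and 12665 to 15266 genes were detected. Aqp2, the marker of the principal cell, stood at 9389 to 50061 CPM (counts scaled to the gene reads of a library) and was high in every library, while the leukocyte gene Ptprc was at 0 in 12. Over the 20 libraries the summed level of 12 immune cell markers was 68.4 to 1022 TMM CPM (CPM with a normalisation factor that levels the bulk of genes between libraries), at 0 in none of them. Among the libraries, day 1 control 1 and day 1 water-loaded 2 were unlike the others, with 12665 and 12788 genes and normalisation factors of 0.644 and 0.686. The mean of 17 proximal tubule markers reached 7.77 (log2 of TMM CPM + 1) in day 1 water-loaded 2, against 1.45 to 2.86 in the day 1 control libraries. At day 2 the libraries numbered 1 and 2 stood apart from those numbered 3 and 4 in both treatments, with 13322 to 14373 against 14490 to 15266 genes detected. The labels give no batch for these numbers, and the split was noticed after the values were seen.

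The 13 genes took 2.39% to 14.9% of the gene reads of a library, with a median of 4.90%. In day 1 control rats the share was 6.15%, 5.00% and 4.81%, and in day 1 water-loaded rats 7.55%, 7.25% and 7.37%. At day 1 the water-loaded rats were all above the controls, with means of 7.39% ± 0.148 against 5.32% ± 0.728 (SD, n = 3 each). The difference of 2.07 percentage points had an exact two-sided permutation p of 0.1, which is the lowest value possible with 3 rats a group. Without the pair of day 1 libraries that stood apart it was 2.55. Of 17 proximal tubule markers 17 had a higher fitted level with water load at day 1, but their summed level was 1115, 178 and 286 TMM CPM in controls and 432, 9731 and 242 in water-loaded rats, so that without water-loaded rat 2 the water-loaded values lay inside the control range. At day 2, 15 of these 17 were lower. Their summed level was 3119, 338, 350 and 414 TMM CPM in controls and 316, 361, 309.5 and 289 in water-loaded rats. Of these, control rat 1 stood far above the rest. Markers of the thick ascending limb and distal convoluted tubule, segments with many mitochondria, were higher at day 1 in 6 of the 9 tested. Their mean was 4.67 to 5.57 in water-loaded rats against 2.77 to 4.74 in controls (log2 of TMM CPM + 1). Their summed level was 1818 to 13463 against 632 to 6763 TMM CPM. At day 2, 7 of 9 were lower, but the summed levels overlapped. They were 1254, 442, 1099 and 1129 TMM CPM in controls and 891, 880, 1128 and 5804 in water-loaded rats. Of 11 principal cell markers 8 were lower at day 1, with a summed level of 16693 to 30403 against 29437 to 42668 TMM CPM. They were lower in 10 of 11 at day 2 and in 8 of 11 at day 4. The list holds the vasopressin regulated Aqp2, so its level does not give the number of principal cells. Of 13 intercalated cell markers 9 were higher at day 1 and 6 at day 2. Their day 1 mean was 9.27 to 9.81 against 9.15 to 9.34 (log2 of TMM CPM + 1), which overlapped. The part of these cell types in the share was not tested. In bulk ducts, a difference in the number of cells of a type with many mitochondria and a difference in mitochondrial RNA per cell cannot be told apart.

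At day 2 the share was 8.46%, 9.76%, 2.85% and 4.06% in control rats 1 to 4, and 14.9%, 12.6%, 5.15% and 3.55% in water-loaded rats 1 to 4. The groups overlapped, with means of 6.28% ± 3.34 and 9.03% ± 5.53 (SD, n = 4 each), a difference of 2.75 percentage points with an exact permutation p of 0.4. Libraries 1 and 2 were high and libraries 3 and 4 low in both treatments. Within numbers 1 and 2 the mean was 9.11% in control and 13.7% in water-loaded rats, and within numbers 3 and 4 it was 3.46% and 4.35%. Both strata put the water-loaded mean above the control mean, and the gap between the numbers exceeded the gap between the treatments in each. With 2 libraries per treatment, neither stratum was tested alone.

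At day 4 the share was 3.26%, 2.70% and 4.06% in control rats and 3.01%, 3.60% and 2.39% in water-loaded rats. These values overlapped, with means of 3.34% ± 0.683 and 3.00% ± 0.605 (SD, n = 3 each), a difference of -0.34 percentage points (exact permutation p = 0.6). Without day 4 control 3 the difference was 0.02 percentage points in the other direction. Averaged over the days with equal weight, water-loaded rats stood 1.49 percentage points above controls, with an exact p of 0.198 over the 28000 arrangements within days. Same-numbered water-loaded rats were the higher in 3 of 3 pairs at day 1, 3 of 4 at day 2 and 1 of 3 at day 4. With the replicate number as a block the average passed the threshold (exact permutation p = 0.043), although the numbers paired libraries at day 2 only.

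**Figure D1:**
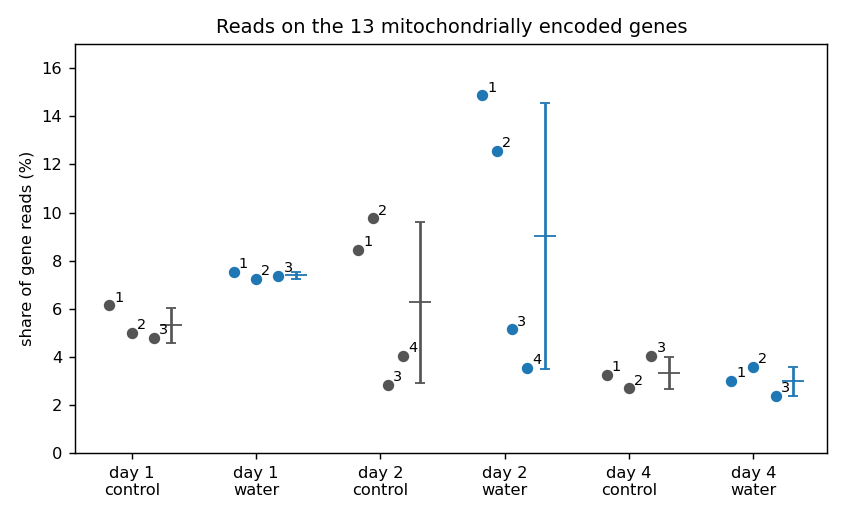
Share of gene reads on the 13 mitochondrially encoded genes (percent, vertical axis) in each of 20 libraries by group; points are rats with their replicate number, and the bar beside them is the mean ± SD. At day 1 the water-loaded rats (7.25% to 7.55%) lie above the controls (4.81% to 6.15%), at day 2 numbers 1 and 2 lie above numbers 3 and 4, and at day 4 the groups overlap.

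Across days the group means of the share in control rats were 5.32%, 6.28% and 3.34% at days 1, 2 and 4, and in water-loaded rats 7.39%, 9.03% and 3.00%. An F statistic over the days, tested by exact permutation within a treatment, was 1.48 in control rats (n = 10, p = 0.289) and 2.43 in water-loaded rats (n = 10, p = 0.128). All 3 day 4 water-loaded rats lay below all 3 day 1 water-loaded rats, and all 3 day 4 controls below all 3 day 1 controls. Gene reads were also fewer at day 4, 33.5 to 48.9 M against 44.5 to 60.7 M at day 1. Over the 20 libraries the log2 ratio of mitochondrial to other gene reads ran with the number of gene reads, at a Pearson r of 0.611 (permutation p adjusted over 4 relations 0.0173) and a Spearman rho of 0.644 (adjusted permutation p = 0.0111). Pearson r was 0.52 without the 2 libraries farthest from the median depth and 0.575 on deviations from the group means. For the other 3 measures set against the same ratio, Pearson r was -0.253 for detected genes, 0.281 for nuclear subunits of the respiratory chain and 0.135 for proximal tubule markers, and none passed (smallest adjusted permutation p 0.375). On deviations from the group means these were -0.69, 0.235 and 0.0913, so within groups the ratio ran against detected genes at least as closely as with depth. The part of depth and of detected genes in the share was not tested.

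Per length, the 13 RNAs covered a wide range of levels. FPKM, the deposited counts per kilobase of gene and scaled to depth, had medians over the 20 libraries from 68.7 for Mt-nd4 to 12936 for Mt-co1. Mt-co1 was the highest in 16 libraries, Mt-cytb in 3 and Mt-atp6 in 1. Behind Mt-co1 came Mt-cytb at 7719, Mt-atp6 at 6522 and Mt-cox3 at 6192 FPKM. Neighbours among these 3 could not be ordered, since Mt-cytb lay above Mt-atp6 in 10 of 20 libraries and Mt-atp6 above Mt-cox3 in 10 of 20. Mt-nd1 at 4084 and Mt-co2 at 3892 FPKM were also close, in that order in 12 of 20 libraries. Mt-nd2 at 2214, Mt-nd6 at 1217 and Mt-nd5 at 787 FPKM followed in an order that each held against its neighbour in 18 or 19 of 20 libraries. The lowest were Mt-atp8 at 294, Mt-nd3 at 239, Mt-nd4l at 78.8 and Mt-nd4 at 68.7 FPKM, where neighbours kept their order in 14 to 16 libraries.

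Genes that lie next to each other did not stand at 1 level. Mt-atp6 was 12.5 to 69.5 times Mt-atp8 in FPKM (median 23.9), although the genes overlap on 1 transcript. The ratio of Mt-nd4 to Mt-nd4l, the other overlapping pair, ran from 0.374 to 3.28 with a median of 0.819. Mt-nd5 stood below its opposite-strand neighbour Mt-nd6 in 19 of 20 libraries, at a ratio of 0.131 to 1.06. The ratio of the most abundant gene to the second most abundant also varied, with Mt-co1 at 0.209 times Mt-cytb in day 4 control 2 and 8.0 times in day 1 water-loaded 3. On log2 TMM CPM these genes were nearly unrelated, at a Pearson r of -0.0462 over the libraries and 0.208 on deviations from the group means. Reads that fit more than 1 place (21.3% to 26.9% of a library) or more than 1 gene (0.532% to 1.26%) were not counted to any gene, so values of the overlapping genes and of any gene with a nuclear copy are uncertain.

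**Figure D2:**
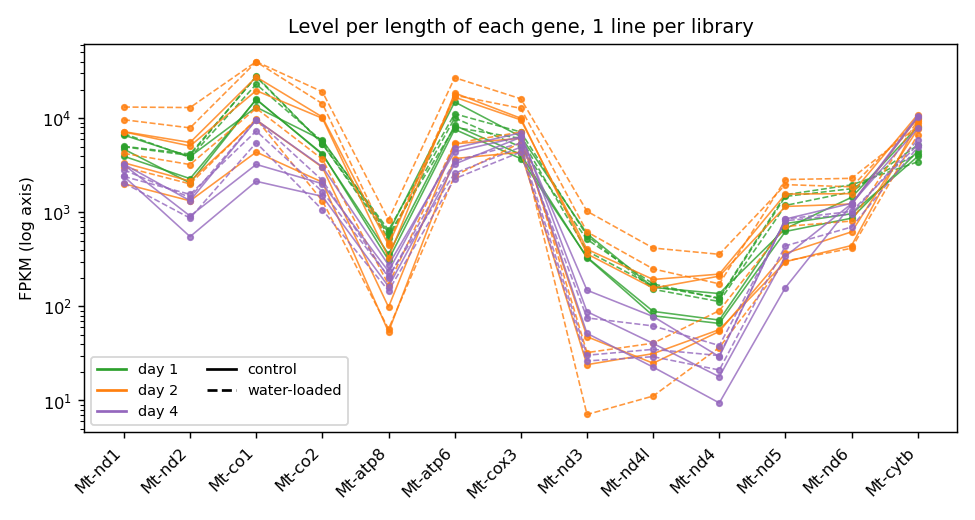
FPKM (log axis) of the 13 genes, placed in their usual order along the mitochondrial genome, with 1 line per library coloured by day, solid for control and dashed for water-loaded rats. Mt-co1 peaks at 2135 to 39962 FPKM, Mt-atp8, Mt-nd3, Mt-nd4l and Mt-nd4 form the low points, and the lines meet most closely at Mt-cytb (3440 to 10933 FPKM).

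The division of the mitochondrial reads among the genes varied most in Mt-co1 and Mt-cytb. Mt-cytb took 15.1, 10.2 and 9.31% of the mitochondrial reads in day 1 controls and 6.34, 8.18 and 5.33% in day 1 water-loaded rats, with no overlap. At day 2 it took 13.7, 12.8, 35.9 and 21.5% in controls and 7.55, 7.46, 21.0 and 21.5% in water-loaded rats, which overlapped. At day 4 it took 37.2, 43.3 and 21.9% in controls and 19.8, 18.6 and 23.5% in water-loaded rats. Day 4 controls 1 and 2 were the highest of all libraries, and day 4 control 3 fell within the water-loaded range. Mt-co1 was the mirror image in part, at 15.3, 12.2 and 36.4% in day 4 controls and 37.5, 41.2 and 35.4% in day 4 water-loaded rats. Those groups overlapped too, through day 4 control 3. In group means, the 3 genes of complex IV took 57.2%, 51.4% and 41.4% in control rats at days 1, 2 and 4 and 66.1%, 58.6% and 54.7% in water-loaded rats. The ATP synthase genes took 16.6, 11.6 and 10.9% in day 1 controls and 9.21, 10.6 and 7.54% in day 1 water-loaded rats, and 10.2, 8.32 and 7.51% against 6.02, 6.75 and 6.60% at day 4, without overlap at either day. At day 2 they took 8.93% to 14.996% and 4.72% to 12.5%, which overlapped. The 7 genes of complex I were steadier, between 14.2% and 21.2% in every library. These shares sum to a fixed total, so 1 gene's share moves with the others, and they were not tested.

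**Figure D3:**
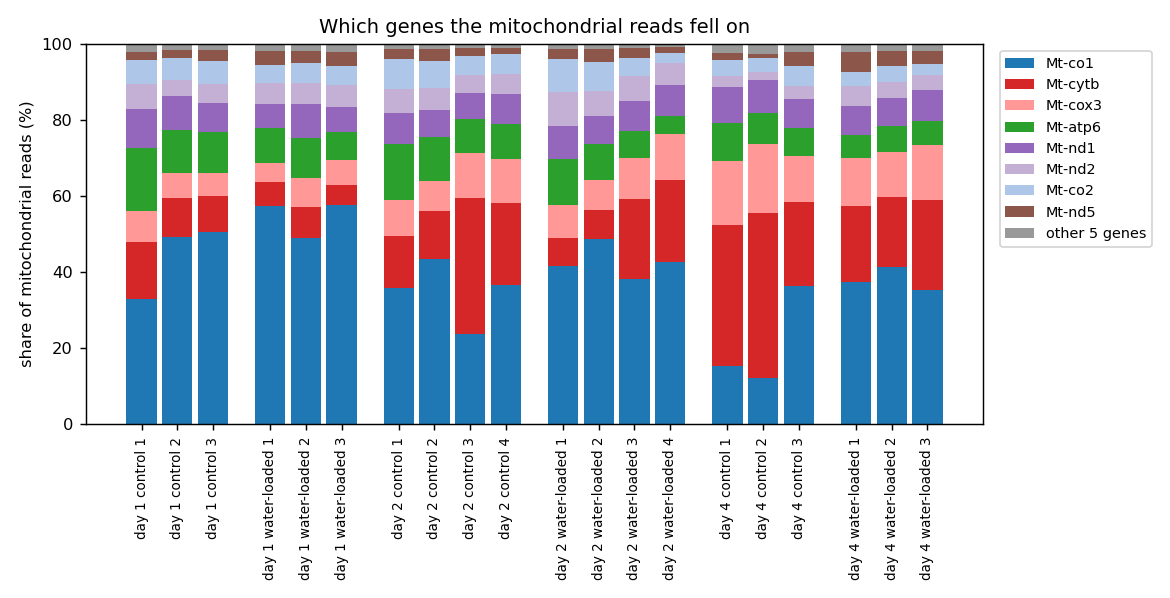
Share of mitochondrial reads (percent) on each gene in each library, stacked to 100, with gaps between the 6 groups. Mt-co1 (dark blue) spans 12.2% to 57.7% and Mt-cytb (red) 5.33% to 43.3%, and day 4 controls 1 and 2 hold the most Mt-cytb and the least Mt-co1.

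For the comparison gene by gene, counts were scaled to CPM with TMM factors, which level the bulk of genes between libraries, and tested with edgeR's quasi-likelihood fit over all 14472 genes that passed the filter, with Benjamini-Hochberg adjustment. For water load against control, 0 of the 13 genes were called at an adjusted p under 0.05 at day 1, day 2 or day 4, where 0% of all genes were called at each day, or over the average of days, where 0.159% were. Unadjusted p-values under 0.05 were found in 0 members at day 1 (15.6% of all genes) and 0 at day 2 (5.23%). They were found in 1 member at day 4 (7.22% of all genes) and in 1 for the average (13.5%). DESeq2 called 0 of the 13 in each of these comparisons, against 8.28%, 0.553%, 2.29% and 5.22% of the genes it gave an adjusted p. The test of whether the effect differed between days called 0 members, with 0 at an unadjusted p under 0.05, against 0% and 8.56% of all genes; DESeq2 called 0 here too (1.53% of its genes). The biological coefficient of variation common to all genes was estimated at 1.06.

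The fitted values leaned one way at days 1 and 2 and the other at day 4. At day 1, 11 of the 13 genes were higher with water load, with a median log2 difference of 0.21, against a median of 0 over all genes. At day 2, 12 were higher with a median of 0.56 (-0.05 over all genes), and at day 4, 4 were higher with a median of -0.55 (0 over all genes). Over the average 8 were higher and 5 lower, with a median of 0.07 (0.01 over all genes). The directions at days 1 and 2 rested on few libraries. Of the 13 genes, the number higher at day 1 was 5 when day 1 water-loaded 2 was left out, 6 without control 3 of that day and 7 without its control 2. At day 2, 6 were higher without day 2 water-loaded 1, and the average then had 5. A direction held at all 3 days was seen in 5 genes, and the other 8 were mixed. It was higher in Mt-co1, Mt-nd5, Mt-nd2 and Mt-nd4 and lower in Mt-cytb. The share of all genes with such a direction was not counted. Most of the 13 genes varied together, so these are not 5 separate observations.

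**Figure D4:**
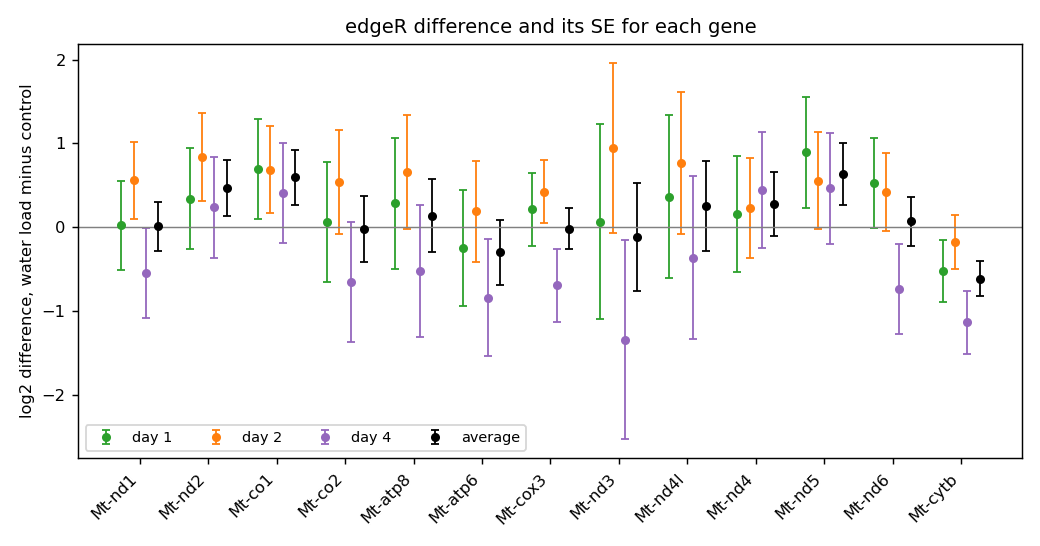
Log2 difference, water load minus control, of each gene at days 1, 2 and 4 and over their average (edgeR), with bars of 1 SE. Averages run from -0.61 for Mt-cytb to 0.64 for Mt-nd5, and none passed the adjusted threshold.

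Complex IV held the most abundant member. Mt-co1, the catalytic subunit that binds oxygen, stood at 31479, 25968 and 24279 TMM CPM in day 1 controls and 39532, 51686 and 41183 in day 1 water-loaded rats. The day 1 groups did not overlap, with every water-loaded rat higher; this held for 2 of the 13 genes, against 5.71% of all genes in that direction, and 0 members lay the other way (5.17% of all genes). On CPM without TMM factors, a scale added after seeing the data, 3 genes were separate, Mt-nd6 besides these (6.5% of all genes). At day 2 Mt-co1 stood at 30019, 45136, 6132 and 14625 TMM CPM in controls and 60717, 60013, 17161 and 16147 in water-loaded rats. At day 4 it stood at 5213, 3645 and 12688 and 9287, 12178 and 7121 TMM CPM. At day 2, 0 members had separate groups, against 2.35% of all genes above and 1.88% below. Mt-co1 overlapped at both later days, with day 4 control 3 above all water-loaded rats of that day. Over the average its log2 difference was 0.60 (SE 0.330, edgeR adjusted p = 0.463). Mt-cox3, another core subunit, stood at 5729, 5437 and 4279 TMM CPM in day 4 controls and 3179, 3489 and 2886 in day 4 water-loaded rats. The day 4 water-loaded rats were all below the controls in Mt-cox3, as in 6 of the 13 genes, against 6.73% of all genes in that direction, and 0 members lay the other way (7.93% of all genes). The count depends on the scale, since on CPM without TMM factors it was 3, Mt-cox3, Mt-cytb and Mt-nd6 (3.74% of all genes). At days 1 and 2 the Mt-cox3 groups overlapped. Mt-co2, which takes electrons from cytochrome c, had group means of 4006 ± 1903, 4389.7 ± 3182 and 1447 ± 337 TMM CPM in control rats at days 1, 2 and 4 and 4176 ± 1283, 6381 ± 5733 and 921 ± 306 in water-loaded rats (SD, n = 3, 4 and 3), and overlapped between treatments at every day.

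Complex III has 1 mitochondrially encoded subunit, Mt-cytb, and its values followed another order than the rest. It stood at 14412, 5374 and 4466 TMM CPM in day 1 controls and 4375, 8643 and 3807 in day 1 water-loaded rats, overlapping through water-loaded rat 2. At day 2 it stood at 11472, 13308, 9299.8 and 8616 TMM CPM in controls and 11040.5, 9178, 9412 and 8138 in water-loaded rats. The split between library numbers was least in this gene. At day 4 Mt-cytb stood at 12690.3, 12922 and 7622 TMM CPM in controls and 4912, 5505 and 4731 in water-loaded rats, without overlap. Its log2 difference was -1.13 at day 4 (SE 0.374, edgeR adjusted p = 0.674) and -0.61 over the average (SE 0.205, adjusted p = 0.19). Both had an unadjusted p under 0.05, 0.00677 and 0.00743, and were the 1 member with such a p in their comparisons. Its adjusted p over the average was 0.11 to 0.383 when 1 library at a time was left out.

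Of the 7 complex I genes, Mt-nd5, a proton-pumping subunit, was the other gene without overlap at day 1. It stood at 1909, 1206 and 1386 TMM CPM in controls and 2467, 3154 and 2727 in water-loaded rats. At day 2 it stood at 2088, 3048, 496 and 659 TMM CPM in controls and 3544, 3991, 1129 and 591 in water-loaded rats, and at day 4 at 652, 321 and 1331 and 1279, 1220.1 and 677. Its day 2 and day 4 groups overlapped, and its log2 difference over the average was 0.64 (SE 0.367, edgeR adjusted p = 0.486). Mt-nd2 and Mt-nd4, also proton-pumping subunits, had averages of 0.47 (SE 0.335, adjusted p = 0.612) and 0.28 (SE 0.382, adjusted p = 0.87) on the log2 scale. They overlapped between treatments at every day.

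Mt-nd1 and Mt-nd6 were the complex I genes with separate groups at day 4 on the TMM scale, with the lower values in water-loaded rats. Mt-nd1 stood at 3187, 2540.1 and 2658 TMM CPM in day 4 controls and 1888, 2209 and 1644 in day 4 water-loaded rats. Mt-nd6 stood at 668, 693 and 554 and 436, 408 and 304 TMM CPM in the same groups. For both genes the day 1 and day 2 groups overlapped. The small genes Mt-nd3 and Mt-nd4l had the widest spread. Mt-nd3 ran from 2.62 TMM CPM in day 2 water-loaded 4, where 106 reads were counted, to 351 in day 2 water-loaded 1. Mt-nd4l ran from 3.52 to 122 TMM CPM between the same libraries, and both genes overlapped between treatments at every day.

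The ATP synthase genes had lower TMM CPM in day 4 water-loaded rats as well. Mt-atp6, which forms the proton channel, stood at 3426, 2447 and 2567 TMM CPM in day 4 controls and 1457, 1958 and 1300.2 in day 4 water-loaded rats. Mt-atp8, its small neighbour, stood at 50.0, 36.5 and 48.0 and 34.9, 33.7 and 25.0 TMM CPM. Neither pair of groups overlapped on this scale, and at days 1 and 2 both genes overlapped between treatments. Together with Mt-cytb, Mt-cox3, Mt-nd1 and Mt-nd6 they make up the 6 genes below every control at day 4, and none of the 6 passed the adjusted test. Without the TMM factors Mt-nd1, Mt-atp6 and Mt-atp8 overlapped. The factors themselves were 1.19 to 1.22 in day 4 water-loaded rats and 0.904 to 1.17 in day 4 controls, and the detected genes 14279 to 14482 against 13071 to 13804. At day 4 markers of fibroblasts and pericytes were also higher in water-loaded rats, in 6 of the 6 tested (7 listed). Their mean was 2.06 ± 0.764 against 0.650 ± 0.175 (log2 of TMM CPM + 1, SD, n = 3 each), and their summed level ran from 15.03 to 74.4 against 6.61 to 9.32 TMM CPM. At day 1, 2 of these 6 were higher and 4 lower. Other lists also leaned at day 4. Endothelial markers were higher in 6 of 7 and immune cell markers in 9 of 12. Red blood cell markers were lower in 3 of 4. Proximal tubule markers were higher in 15 of 17, at a summed level of 255 to 584 against 183 to 326 TMM CPM. Thick ascending limb and distal convoluted tubule markers were lower in 6 of 9, at 392.7 to 1300 against 307 to 1471 TMM CPM. Both summed levels overlapped. The part of these markers, of the factors and of detected genes in the lower values of the 6 mitochondrial genes was not tested. The 13 tested intercalated cell markers stood at 9.93 ± 0.111 against 9.86 ± 0.259.

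**Figure D5:**
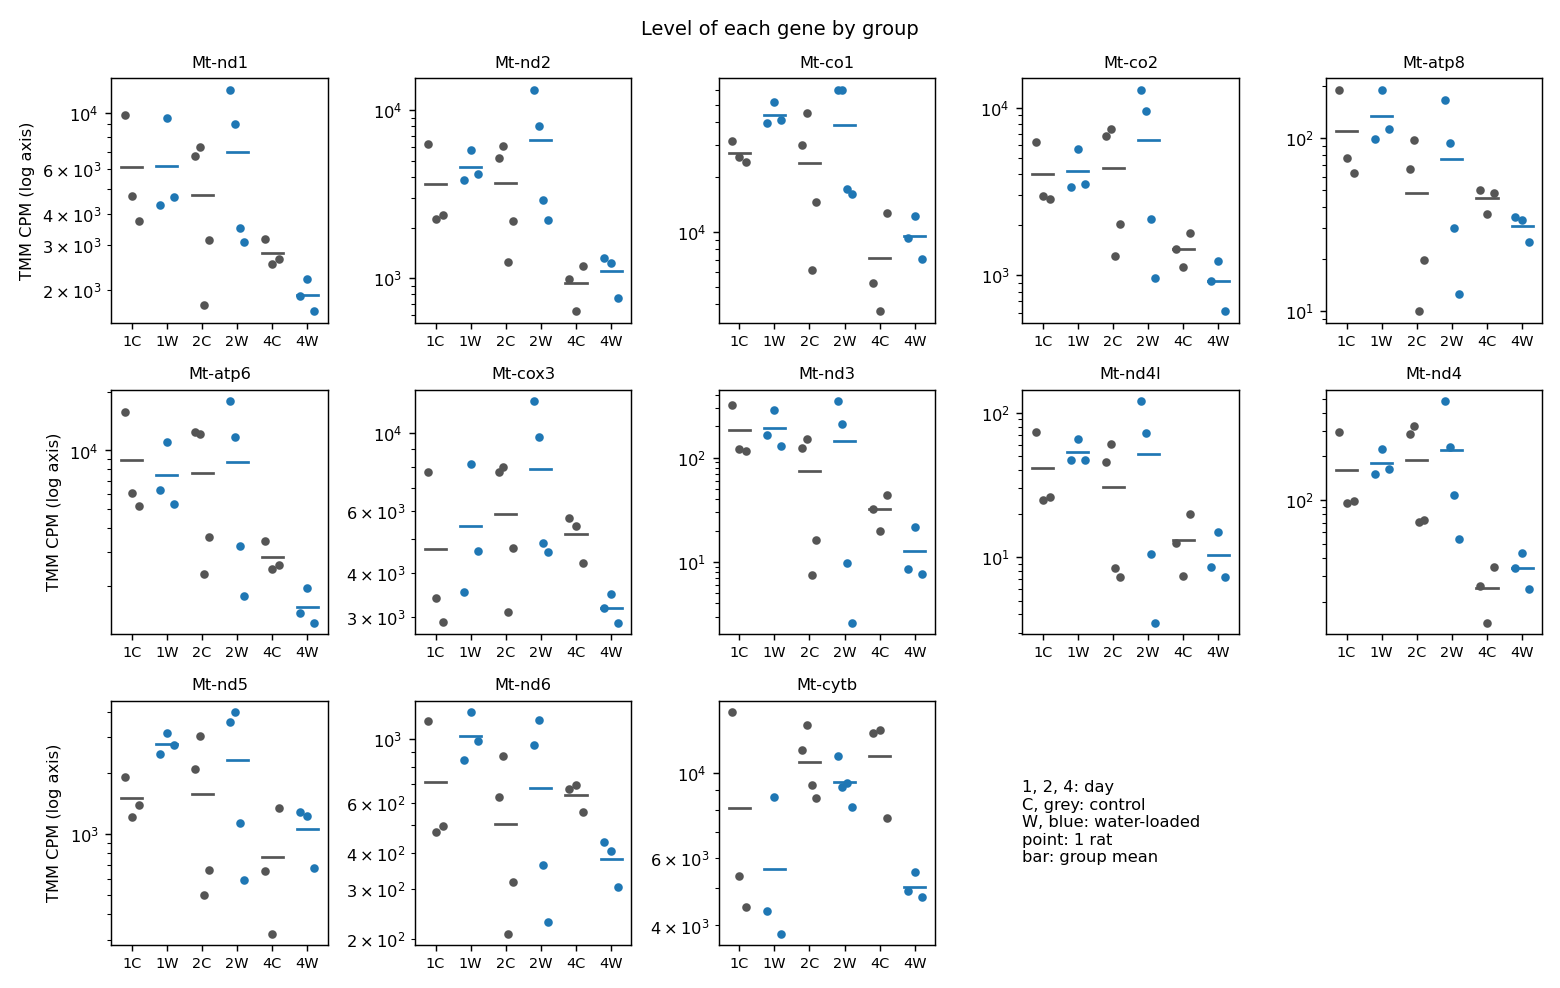
TMM CPM (log axes, 1 panel per gene) in the 6 groups, control in grey and water-loaded in blue, with 1 point per rat and a bar at the group mean. Mt-nd5 and Mt-co1 are separate at day 1, 6 genes including Mt-cytb are separate at day 4 (3 without the TMM factors), and day 2 shows a high and a low pair in each treatment for all genes but Mt-cytb.

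The split at day 2 ran through nearly the whole set. In 12 of the 13 genes each of the 4 libraries numbered 1 or 2 lay above each of the 4 numbered 3 or 4, against 6% of all genes, and Mt-cytb was the exception. The split was noticed after the values were seen, and most of the 13 genes varied together, so these are not 12 separate observations. The ratio of the means was 1.27 in Mt-cytb, 2.20 in Mt-cox3, 3.62 in Mt-co1, 10.1 in Mt-nd4l and 23.0 in Mt-nd3 on the TMM CPM scale. Genes of 1 transcript therefore split to very different degrees. Mt-nd3 stood at 124 to 351 TMM CPM in the libraries numbered 1 and 2 and at 2.62 to 16.3 in those numbered 3 and 4.

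Between days most of the 13 genes were lowest at day 4 in both treatments. In control rats every day 4 rat lay below every day 1 rat in 9 genes, against 10.4% of all genes. In water-loaded rats it was so in 12 genes, all but Mt-cytb, against 10.4% of all genes. As most of the 13 genes varied together, neither count is one of separate observations. Day 4 lay below day 2 in 2 genes in control rats, Mt-nd4 and Mt-nd2 (4.82% of all genes), and in 6 genes in water-loaded rats (6.24%), while 0 of the 13 were separate between days 1 and 2. Of all genes, day 2 lay below day 1 in 6.36% and above it in 6.94% in control rats, and in 5.9% and 8.14% in water-loaded rats. On CPM without TMM factors day 4 lay below day 1 in the same 9 genes in control rats. The share of all genes was not counted there. In water-loaded rats day 4 lay below day 1 in 11 genes (6.44% of all genes). It lay below day 2 in 1 gene in control (4.62%) and 5 in water-loaded rats (3.22%). On that scale Mt-cytb was also higher in every day 2 than in every day 1 water-loaded rat (8.73% of all genes). In control rats the widest ratio of day 1 to day 4 means was that of Mt-nd4, at 293, 95.6 and 98.2 TMM CPM in day 1 controls and 25.7, 14.3 and 34.5 in day 4 controls. In water-loaded rats Mt-nd4 stood at 152, 226 and 164 TMM CPM at day 1 and 34.01, 43.3 and 24.4 at day 4. Neither range met the other in these pairs of groups. Mt-cytb had group means of 8084 ± 5499, 10674 ± 2137 and 11078 ± 2995 TMM CPM at days 1, 2 and 4 in control rats (SD, n = 3, 4 and 3) and did not share the order.

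The F test of edgeR over the days called 0 of the 13 genes in control rats, where 2.45% of all genes were called, and 0 in water-loaded rats, where 0.263% were. At an unadjusted p under 0.05 there were 3 members in control rats and 9 in water-loaded rats, against 22.5% and 12.1% of all genes. In control rats the smallest adjusted p was 0.064, for Mt-nd4, and in water-loaded rats 0.14, for Mt-nd2. Mt-nd4 passed in control rats when day 2 water-loaded 1 (adjusted p = 0.0492) or day 2 water-loaded 4 (0.0482) was left out of the shared fit. DESeq2 called Mt-nd4 (adjusted p = 0.00725) and Mt-nd2 (0.0438) over the days in control rats. In water-loaded rats it called Mt-nd2 (0.0211), Mt-nd4 (0.0336), Mt-co2 (0.0387) and Mt-co1 (0.0494). DESeq2 called 12.5% of the genes it gave an adjusted p in control and 4.24% in water-loaded rats. Rats of different days were different animals, and a day effect and any difference in handling between the days cannot be told apart.

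Across the 20 libraries most of the 13 genes varied together. Pearson r of log2 TMM CPM over the 78 pairs had a median of 0.813 and ran from -0.07 to 0.977, as a description over libraries that share day, treatment and number. Among the 66 pairs without Mt-cytb the lowest r was 0.554. Against the summed level of the other 12 genes, Mt-nd1 had an r of 0.976, Mt-co2 0.972 and Mt-cytb 0.187. On deviations from the group means these were 0.974, 0.972 and 0.449. Mt-cytb also spanned the least, 3.79-fold from its lowest to its highest library on the TMM CPM scale. Mt-cox3 spanned 4.30-fold, Mt-co1 16.7-fold, Mt-nd4 33.8-fold and Mt-nd3 134-fold.

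The nuclear encoded partners were followed from lists drawn up from textbook knowledge, 186 genes of which 162 were tested. For water load against control 0 of the 162 were called on a single day or in the average, against the same background of 0% to 0.159%. Unadjusted p-values under 0.05 were found in 6, 15 and 9 of them at days 1, 2 and 4 and in 12 for the average, against 15.6%, 5.23%, 7.22% and 13.5% of all genes. DESeq2 called 3, 0, 1 and 0 of them, against 8.28%, 0.553%, 2.29% and 5.22%. Among the 71 nuclear subunits of the respiratory chain and ATP synthase, 63 were higher at day 2 with a median log2 difference of 0.40. Their mean log2(TMM CPM + 1) at day 2 was 7.19 to 7.92 in controls and 7.83 to 8.12 in water-loaded rats, which overlapped. Over all genes 46.7% were higher at day 2, with a median of -0.05. At days 1 and 4, 31 and 42 of the 71 were higher (medians -0.03 and 0.16), against 47.5% and 49.1% of all genes. For the average 48 of the 71 were higher (median 0.16). Of 18 genes of mitochondrial DNA transcription and replication, 15 were lower over the average, with a median log2 difference of -0.35. Over all genes the median was 0.01, with 51% higher. The numbers lower at days 1, 2 and 4 were 11, 9 and 12. Their mean log2(TMM CPM + 1) at day 1 was 3.93, 4.45 and 3.83 in controls and 4.01, 2.67 and 3.89 in water-loaded rats. Group means at days 2 and 4 were 4.25 and 4.04 in control and 4.24 and 4.05 in water-loaded rats. Tfam, which packages mitochondrial DNA and starts its transcription, had a log2 difference of -0.36 (SE 0.33, edgeR adjusted p = 0.74), and Polrmt one of -0.20 (SE 0.33, adjusted p = 0.905). Top1mt, the mitochondrial topoisomerase, had the smallest p of that list (-1.16, SE 0.482, adjusted p = 0.291). Its log2 difference was -2.60 at day 1, -0.23 at day 2 and -0.65 at day 4. At day 1 it ran from 16.3 to 210 TMM CPM in controls and from 1.03 to 33.6 in water-loaded rats, which overlapped. None of Tfam, Polrmt and Top1mt passed.

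In lists where no member passed in any comparison, the smallest p over the average belonged to Sdhb, the iron-sulfur subunit of complex II, Trmu, which modifies mitochondrial transfer RNA, Esrra, a nuclear receptor of mitochondrial biogenesis, and Tufm, the mitochondrial elongation factor. Their log2 differences were 0.35 for Sdhb (adjusted p = 0.422), 1.68 for Trmu (0.287), -0.59 for Esrra (0.202) and 0.27 for Tufm (0.557), by edgeR. For Trmu, levels were low, at a mean of 6.17 TMM CPM in day 4 controls.

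Over the days in control rats, 12 of the 162 nuclear genes were called, 9 of them among the 71 subunits, against 2.45% of all genes. Ndufv2, a core subunit of complex I, fell from 1918 ± 300.2 TMM CPM at day 1 to 695 ± 399 at day 2 and 285 ± 68.4 at day 4 (SD, n = 3, 4 and 3; edgeR adjusted p = 0.01). Cox4i1, a subunit of complex IV, stood at 3718 ± 1532, 1153 ± 432 and 848 ± 23.3 TMM CPM (adjusted p = 0.0084), and Atp5h, of the ATP synthase stalk, at 1029 ± 109, 469 ± 187 and 332 ± 37.5 (adjusted p = 0.0282). These means fell from day to day, as did those of Cox5a, Atp5g3 and Grpel1, a co-chaperone of the mitochondrial Hsp70. Ndufa6, Cox8a and Fkbp8 were lowest at day 2, Uqcrq and Ndufs7 were highest at day 4, and Bnip3, a mitophagy receptor, was highest at day 4 with 18.9 ± 2.22, 30.4 ± 19.9 and 108 ± 26.7 TMM CPM (adjusted p = 0.0454). Leaving out a single control library changed the 12 calls, to 0 without day 1 control 1 and 2 without day 4 control 1. They were 6 without day 1 control 2 or day 4 control 2. The calls over all genes moved as well, from 355 with all libraries to 43 to 563 without 1 library.

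Over the days in water-loaded rats 2 nuclear genes were called, against 0.263% of all genes. Ndufv2 stood at 1725 ± 946, 697 ± 240.2 and 239.9 ± 44.3 TMM CPM at days 1, 2 and 4 (adjusted p = 0.0203) and Fis1, a receptor of mitochondrial fission, at 351 ± 192, 115 ± 24.9 and 73.6 ± 12.8 (adjusted p = 0.0346). The 2 calls became 0 without day 1 water-loaded 2 or any 1 day 4 water-loaded library. They became 1 without any 1 day 2 water-loaded library, and 4 without day 1 control 1. Over all genes the calls, 38 with all libraries, ran from 5 to 79 without 1 library.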

How the data were processed

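Reads of hand-dissected cortical collecting ducts were processed by the authors. The submitters' processing notes name Trimmomatic 0.32, STAR 2.4.0.1, SAMtools, HTSeq and the build rn6. For settings, gene annotation and strand use: not given in the sources used here. Per the labels' protocols, the tubule lysate went straight into reverse transcription and a single-cell amplification method, so reads are not independent molecules and counting intervals cover counting error only. The deposited counts are whole reads per gene. HTSeq's 5 summary lines, which are not genes, made up 31.5% to 35.6% of a column and were left out. The FPKM values deposited by the authors are the same counts divided by a fixed length per gene (203 bases for Mt-atp8 to 1829 for Mt-nd5) and by depth, and were used for levels between genes and in 1 alternative.

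The share is the percentage of gene reads on the 13 genes. Its 95% Wilson interval was 2.386% to 2.396% in the library with the smallest share and 14.85% to 14.87% in that with the largest. Shares were tested by exact two-sided permutation within days. Counts were tested with edgeR 4.0.16 (filterByExpr, TMM, robust quasi-likelihood fit, all 20 libraries, a mean per group) in R 4.3.3, with Benjamini-Hochberg adjustment over 14472 genes and a threshold of 0.05. The fit was tested on simulated data first. Each library is a separate rat, as the labels number them. The SE is the log2 difference divided by the root of F. Marker and list means are log2(TMM CPM + 1). Alternatives used DESeq2 1.42.0, limma 3.58.1 on log2(FPKM + 1), other scalings, no filter, other denominators, the replicate block and leaving out libraries.

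Same-numbered libraries of the treatments deviated together at day 2 (correlations 0.148, 0.147, 0.154 and 0.236, all over 0.1) but not at days 1 and 4 (-0.0907 to 0.0595), so numbers pair rats at day 2 only. With the block the day 2 difference in share had an exact permutation p of 0.25 (4 pairs). Named genes are all 13 members, the nuclear list members called in a comparison or else the 1 with the smallest p over the average, and Tfam and Polrmt. The members and lists were chosen with earlier results of these data known.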

Additional observations from a re-analysis of the deposited data

How the results depend on the processing

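The higher share at day 1 kept its direction in all 11 alternatives (1.81 to 2.48 percentage points without 1 library) and that at day 2 in all 14 (0.807 to 4.58). At day 4 the difference ran from -0.66 to 0.0203 without 1 library, the latter without day 4 control 3, and the cause was not tested. The average ran from 0.845 to 2.10 without 1 library. It passed the threshold with the replicate block (1.49, exact permutation p = 0.043), and with day 2 libraries 1 and 2 and libraries 3 and 4 as strata, a choice made after seeing the data (1.49, exact permutation p = 0.0128). Both compare the same means within pairs or strata. Adding the 24 rows described among the other observations, also chosen after seeing the data, gave 1.504.

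Members called over the days in control rats were 0 to 1 without 1 library and 2 by DESeq2; in water-loaded rats they were 4 by DESeq2. For the nuclear genes DESeq2 called 3 at day 1, 1 at day 4, 1 for the difference between days, 28 over the days in control and 13 in water-loaded rats. Without 1 library these last counts were 0 to 16 (12 with all; 6 without day 1 control 2 or day 4 control 2) and 0 to 4 (2 with all), and without day 1 control 1 and day 1 water-loaded 2 together 7 and 0. Of all genes, DESeq2 called 1132, 77, 319 and 714 at days 1, 2, 4 and over the average, where edgeR called 0, 0, 0 and 23. Over the days it called 1586 in control and 517 in water-loaded rats (edgeR 355 and 38). Without 1 library the edgeR counts over the days were 43 to 563 and 5 to 79. With the replicate block edgeR called 5 over the average. For these the cause was not tested. Mt-cytb stayed lower, and Mt-co1, Mt-nd5, Mt-nd2 and Mt-nd4 higher, over the average in all 28 alternatives. The average of Mt-nd4 went down to 0.03 without 1 library. These 5 were picked for having 1 direction at all 3 days, so a stable average follows in part from that choice. Among all 13 genes the number higher over the average ran from 5 to 11 without 1 library. The smallest count of a member in a library was 106 reads, for Mt-nd3. On CPM without TMM factors, chosen after seeing the data, the members below every control at day 4 were 3 in place of 6.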

Other observations

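Besides the 13 protein genes, 24 rows of the count table carry the name of 1 sequence record with a running number and no gene name. They took 0.0135% to 0.215% of the gene reads of a library. Of these rows, 11 had 0 counts in all libraries, 22 had at most 200 counts in every library, and 2 had more. In group means they took 0.0707% ± 0.0309 of gene reads in day 1 controls and 0.0911% ± 0.0459 in day 1 water-loaded rats (SD, n = 3 each). At day 2 the means were 0.0824% ± 0.0585 and 0.104% ± 0.0891 (SD, n = 4 each), and at day 4 they were 0.0235% ± 0.00825 and 0.0150% ± 0.000905 (SD, n = 3 each). Every day 4 water-loaded rat lay below every day 4 control rat, as the range of 0.0140% to 0.0157% against 0.0180% to 0.0330% shows.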
